A study of Mus musculus with 6 samples.

Results

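Checkpoint and costimulatory receptors are surface proteins that adjust how strongly a T cell answers its antigen. The 10 mouse genes described here, Havcr2, Lag3, Ctla4, Tigit, Pdcd1, Cd160, Cd226, Icos, Cd28 and Cd96, were taken by symbol from a table of 55401 genes, with earlier results of these data known. Bulk RNA sequencing had been carried out on 6 T cell cultures. Of these, 3 received medium conditioned by macrophages that had been stimulated with neurofilament light chain (NFL), part of the axonal cytoskeleton, and 3 received medium from unstimulated macrophages. According to the deposited design text, the T cells were selected from mouse spleen with magnetic beads against CD8a, and the macrophages were grown over 7 days in 50 ng/mL M-CSF from spleen cells selected for CD11b. The NFL group received medium from macrophages given 5 µg/mL NFL for 24 h, with the NFL made, by the same text, from freeze-thawed sciatic nerve. The paper instead lists a purchased NFL protein for its mouse treatment, and freeze-thawed sciatic nerve as a separate lysate. The agent is called NFL here as in the design text. In both groups the filtered supernatant made up 50% of RPMI-1640 medium with 2% serum. Other co-cultures of the study used a lower NFL concentration. Strain, age, sex and the number of animals are not given in the labels for these cultures. Nothing in the labels says that the 3 cultures of a group came from separate animals, so p-values measure only the spread between these samples, which may be technical. The comparison asks whether medium from NFL-activated macrophages alters the receptors that set the T cell's threshold, a question the study raises in relation to CD28 and to exhaustion markers. None of these cultures received NFL without macrophages, so any NFL left in the medium cannot be told apart from macrophage factors.

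The receptors pair off by family and by ligand. CD28 and ICOS deliver costimulation, and CTLA-4 competes with CD28 for CD80 and CD86. PD-1 binds PD-L1 and PD-L2, TIM-3 (the product of Havcr2) is engaged by galectin-9 among other ligands, and LAG-3 binds MHC class II and other ligands such as galectin-3. TIGIT and CD96 on one side and the activating receptor CD226 on the other share ligands of the nectin and poliovirus receptor family, and CD160 binds the TNF-receptor family member HVEM. On T cells that meet antigen for a long time, PD-1, TIM-3, LAG-3 and TIGIT are commonly present together, a state known as exhaustion, whereas loss of CD28 is commonly used as a sign of senescence.

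The libraries held 15843045 to 24639756 counted reads, and 3 counts, taken here as the floor of detection, corresponded to 0.122 to 0.188 counts-per-million (CPM). CPM values carry the TMM scaling of edgeR, with factors from 0.994 to 1.007. All 14 T cell markers that were looked up passed the count filter, but Cd8a had a median of only 3.92 CPM and Cd8b1 1.28 CPM, against 25.7 CPM for Cd4 and 1641 CPM for Thy1, so the transcripts of CD8 itself were low in cells selected for it. Trac, Cd3d and Cd3g were low too, with medians of 1.59, 4.15 and 7.63 CPM, while Trbc1 and Cd3e had 357 and 53.6 CPM. A single variable segment, Trbv1, took 99.9% to 100% of the counts on β-chain variable segments. Low Cd8a and Cd8b1 and a single dominant Trbv segment go against the description of the cells as primary splenic T cells selected for CD8a. Their identity is therefore in doubt, which bears on every receptor value given here, and they are called only T cells, as in the labels. Of the 10 macrophage markers, 9 had 3 counts or fewer in each library, and so did 6 of 7 natural killer cell markers, Klrb1c being the exception. No sequencing batch is given in the labels.

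Of the 10 receptors, 6 passed the filter on low counts, 2 were detected below it and 2 were at or under the floor. The transcripts of Havcr2, Lag3 and Cd96 together took 94.96% to 97.09% of all reads counted on the 10 genes in each library. Compared per kilobase of exon, the control means were 58.8 CPM per kb for Havcr2 (SD 1.43, n = 3) and 55.1 CPM per kb for Lag3 (SD 2.46, n = 3). Their control libraries overlapped, with 57.2 to 59.9 for Havcr2 and 53.5 to 57.9 for Lag3, so the order of these neighbors was not separated by their spread. With NFL supernatant they were apart, with 66.0 to 69.6 CPM per kb for Havcr2 and 46.4 to 51.4 CPM per kb for Lag3. Cd96 followed with 33.5 CPM per kb (SD 2.11, n = 3) and Tigit with 11.3 CPM per kb (SD 1.25, n = 3), each apart from its neighbors in every control library. Cd28 was far lower, at 0.862 CPM per kb (SD 0.123, n = 3). Cd160 and Pdcd1, at 0.226 and 0.238 CPM per kb, overlapped each other and lay near the limit of these libraries.

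**Figure D1:**
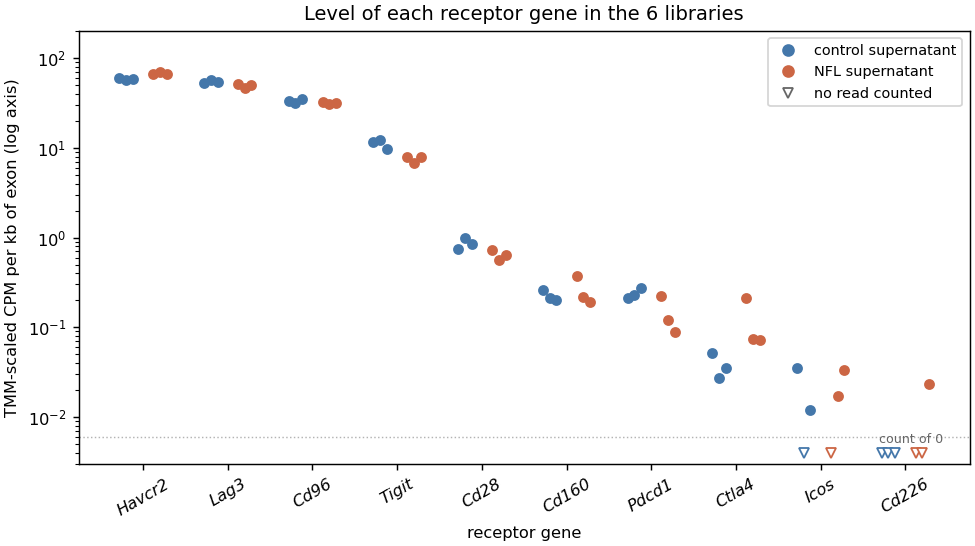
Level of each receptor gene as TMM-scaled CPM per kb of exon on a log axis, with 1 point per library (blue, control supernatant, and orange, NFL supernatant) and open triangles for libraries without a read. Havcr2, Lag3, Cd96 and Tigit stand above 6 CPM per kb in all 6 libraries, and Cd28 lies below 1 in all of them.

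Ctla4, Icos and Cd226 were close to absent. Icos had 3, 0 and 1 counts with control supernatant and 0, 1 and 2 with NFL supernatant, and Cd226 had 2 counts in NFL replicate 3 and no count in the other 5 libraries. Ctla4 had 3, 1 and 2 counts with control supernatant and 8, 3 and 3 with NFL supernatant, so all but 1 library were at or under the floor. In CPM the NFL libraries lay above the control libraries for Ctla4, but no fold is given at this depth. Pdcd1, which encodes PD-1, had 10, 7 and 13 counts with control supernatant and 7, 4 and 3 with NFL supernatant, at most 0.532 CPM, and the groups overlapped in CPM. None of these 4 genes entered the main test. When all genes with a count were tested (29168 genes), edgeR's adjusted p was 0.754 for Pdcd1, 0.666 for Ctla4, 0.7 for Cd226 and 0.999 for Icos, and differences in these genes were not detectable at this depth. Cd28, Ctla4 and Icos lie side by side on chromosome 1 with gaps of 114 and 62.1 kb, and of these neighbors only Cd28 was above the floor in all 6 libraries.

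The window before the transcription start is shown for the 3 genes that passed the filter at the highest levels among those listed in RefSeq (GRCm38.p6), so that the regulatory sequence of transcribed checkpoint genes can be seen beside their values. Lag3, Cd28 and Icos had no entry there, and Cd226 was left out of the search. Each line holds the 250 bases before the start, read 5′ to 3′ on the strand of the gene. Capitals mark matches on either strand to TGTGGT (the RUNX core), TGANTCA (AP-1), GGAAA (the NFAT core) or the κB consensus.
Havcr2 (chr11:46454681-46454930, plus strand): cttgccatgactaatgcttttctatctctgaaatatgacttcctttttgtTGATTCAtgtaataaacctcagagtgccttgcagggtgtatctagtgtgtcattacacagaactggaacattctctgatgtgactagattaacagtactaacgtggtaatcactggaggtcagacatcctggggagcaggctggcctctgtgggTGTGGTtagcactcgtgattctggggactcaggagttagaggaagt
Cd96 (chr16:46120249-46120498, minus strand): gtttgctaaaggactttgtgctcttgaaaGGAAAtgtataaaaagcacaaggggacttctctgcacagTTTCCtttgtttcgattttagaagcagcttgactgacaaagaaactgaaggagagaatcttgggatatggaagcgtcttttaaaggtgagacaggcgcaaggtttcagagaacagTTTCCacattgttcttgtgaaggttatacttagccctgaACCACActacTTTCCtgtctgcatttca
Tigit (chr16:43664185-43664434, minus strand): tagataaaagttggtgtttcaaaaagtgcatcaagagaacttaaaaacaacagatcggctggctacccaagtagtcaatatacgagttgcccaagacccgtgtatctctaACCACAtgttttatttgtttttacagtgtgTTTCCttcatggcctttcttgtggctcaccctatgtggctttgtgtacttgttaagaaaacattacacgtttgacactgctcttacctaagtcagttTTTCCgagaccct
Each of the 3 windows held 1 RUNX match, 46, 28 and 140 bases before the start in Havcr2, Cd96 and Tigit, and 14% of the 32851 windows in the table held one. The Havcr2 window also held an AP-1 match, found in 6.75% of windows. GGAAA, present in 55.6% of windows, occurred 4 times before Cd96 and 2 times before Tigit. The κB consensus, present in 7.25% of windows, was not among the letters of these 3. Of the receptor windows searched but not shown, 1 of Cd160 held a κB match, 132 bases before the start. Each Cd160 window held 1 RUNX match, and those of Ctla4 and Pdcd1 held none. A match is a description of letters, and no binding was measured here.

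Compared gene by gene between the supernatants, Havcr2 was higher with NFL-activated macrophage supernatant, and Tigit and Lag3 were lower. By the quasi-likelihood test of edgeR, adjusted after Benjamini and Hochberg over 14082 genes, these 3 of the 6 testable receptors were past 0.05, 1 higher and 2 lower, where 7.00% of all tested genes were past it, 3.47% higher and 3.53% lower. The median log2 fold change was -0.12 over the 6 receptors and -0.00099 over all tested genes. Cd28, Cd96 and Cd160 were not past the threshold. In these bulk samples fewer cells that carry a transcript and less transcript per cell cannot be told apart.

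Havcr2 (ENSMUSG00000020399.14), which encodes the inhibitory receptor TIM-3, lies on chromosome 11 from 46454935 to 46481255 in GENCODE M21 (GRCm38), the annotation used for every gene position given here. Havcr2 was measured at 163, 156 and 162 CPM in control replicates 1 to 3 and 180, 189 and 181 CPM in NFL replicates 1 to 3. Each NFL library was above each control library, although by little. The means were 160 ± 3.90 CPM and 183 ± 5.33 CPM (SD, n = 3 each), a rise of 14.3% and a log2 fold change of 0.19 (standard error 0.035, 95% interval 0.12 to 0.26, edgeR adjusted p = 0.000119). With any 1 library left out the log2 fold change stayed between 0.17 and 0.21 and the call was kept. Havcr2 ranked 145 by p among all tested genes, the highest rank of the receptors, with a change smaller than that of Tigit.

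Tigit (ENSMUSG00000071552.5), an inhibitory receptor of the immunoglobulin superfamily, lies on chromosome 16 from 43648867 to 43664146. It had 265, 179 and 221 counts with control supernatant and 116, 106 and 127 counts with NFL supernatant, which gave 10.8, 11.2 and 9.05 CPM against 7.21, 6.16 and 7.19 CPM. All 3 NFL libraries lay below the lowest control library. Tigit fell by 33.4%, a log2 fold change of -0.59 (standard error 0.131, 95% interval -0.85 to -0.32, edgeR adjusted p = 0.00209). Of all tested genes, 2.02% had a lower log2 fold change. Its log2 fold change ranged from -0.68 to -0.51 with each library left out, with adjusted p-values between 0.000825 and 0.027.

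Lag3 (ENSMUSG00000030124.2), an inhibitory receptor related to CD4, lies on chromosome 6 from 124904361 to 124911705. Lag3 was measured at 113, 122 and 114 CPM with control supernatant and 108, 97.8 and 106 CPM with NFL supernatant. The groups were separated only narrowly, by NFL replicate 1 and control replicate 1. The means were 116 ± 5.19 CPM and 104 ± 5.58 CPM (SD, n = 3 each), so that Lag3 fell by 10.1%, a log2 fold change of -0.15 (standard error 0.043, 95% interval -0.24 to -0.07, edgeR adjusted p = 0.0173). The log2 fold change was smaller and the call was lost without control replicate 2 (-0.12, edgeR adjusted p = 0.0976) and without NFL replicate 2 (-0.11, edgeR adjusted p = 0.239). Without NFL replicate 3 the call was also lost (edgeR adjusted p = 0.0518), although the log2 fold change was slightly larger in size (-0.17).

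**Figure D2:**
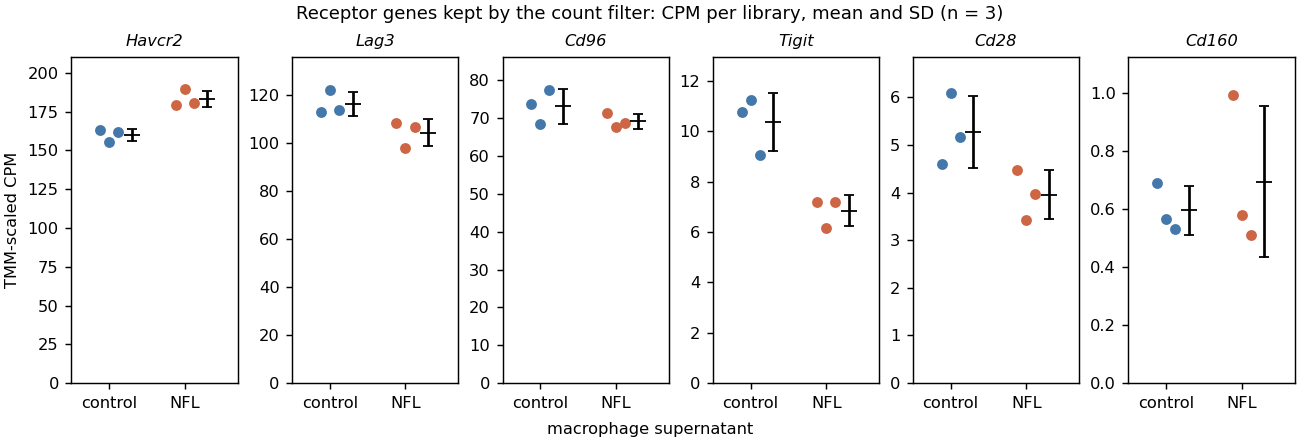
TMM-scaled CPM (vertical axes from 0) of the 6 receptor genes kept by the count filter, with 1 point per library for control supernatant (blue) and NFL supernatant (orange) and the mean and SD (n = 3) in black. The points of the groups are apart for Havcr2, Lag3, Tigit and Cd28, and they overlap for Cd96 and Cd160.

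Cd28 (ENSMUSG00000026012.2), the receptor for CD80 and CD86 on the activating side, lies on chromosome 1 from 60716800 to 60773359. It had 113, 97 and 126 counts with control supernatant and 72, 59 and 70 counts with NFL supernatant, or 4.59, 6.09 and 5.16 CPM against 4.47, 3.43 and 3.96 CPM. The groups were apart by the small step between control replicate 1 and NFL replicate 1. Its log2 fold change of -0.40 had a 95% interval from -0.76 to -0.04 before adjustment over all genes, and the adjusted p was 0.189 in edgeR's test. The groups did not overlap for 4 of the 6 tested receptors, beside 22.7% of all tested genes.

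Cd96 (ENSMUSG00000022657.9), which shares the ligand CD155 with TIGIT, lies on chromosome 16 from 46035657 to 46120251. Cd96 was measured at 73.7, 68.3 and 77.5 CPM with control supernatant and 71.4, 67.5 and 68.7 CPM with NFL supernatant, and the groups overlapped. The log2 fold change was -0.09 (95% interval -0.19 to 0.02, edgeR adjusted p = 0.373), an interval that leaves room for a small fall. Cd160 (ENSMUSG00000038304.14), on chromosome 3 from 96798763 to 96829351, passed the filter with only 9 to 17 counts per library. It had 0.691, 0.565 and 0.532 CPM against 0.994, 0.581 and 0.510 CPM, and its interval ran from -0.71 to 1.12 (log2 fold change 0.20, edgeR adjusted p = 0.871). Without NFL replicate 1 the log2 fold change of Cd160 was -0.13. Exons of Cd160 overlap those of Pdzk1 on the opposite strand, which had 107 counts over the 6 libraries, and the use of strand in counting is not given in the sources used here.

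**Figure D3:**
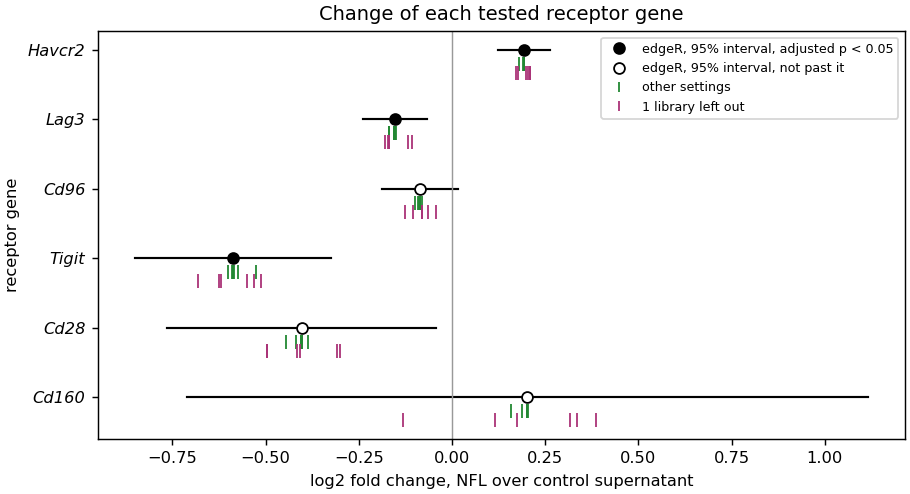
Log2 fold change of each tested receptor gene (NFL over control supernatant) with its 95% interval from edgeR, filled where the adjusted p is below 0.05. Green ticks give the other settings and purple ticks the fits with 1 library left out, which cross 0 only for Cd160.

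Ratios of raw counts within a library do not depend on how libraries are scaled. There were 1.45, 1.27 and 1.42 Havcr2 reads for each Lag3 read with control supernatant and 1.66, 1.94 and 1.6997 with NFL supernatant. For each Tigit read there were 6.85, 6.08 and 8.57 reads of Cd96 with control supernatant and 9.91, 10.96 and 9.55 with NFL supernatant. Both ratios were higher in each NFL library than in each control library (p = 0.1 by an exact permutation test, two-sided, the lowest p possible with 3 samples a group). Havcr2 and Lag3 were already apart in opposite directions in CPM, so their ratio had to separate the groups and adds no separate support. Tigit was also apart in CPM already, and Cd96 stayed between 67.5 and 77.5 CPM in all 6 libraries. The ratio of Cd96 to Tigit therefore restates the fall of Tigit and adds no separate support either. The inhibitory receptors that were called did not all move in 1 direction.

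The ligands are mostly made by other cells, but several were transcribed in these cultures. Of 16 ligand genes, 11 were tested and 3 were past the threshold, 2 lower and 1 higher. Lgals3, which encodes galectin-3, a ligand of LAG-3, had 184, 187 and 182 CPM with control supernatant and 126, 133 and 130 CPM in the NFL libraries (log2 fold change -0.50, edgeR adjusted p = 6.78e-16). Lgals9, which encodes the TIM-3 ligand galectin-9, was lower at 4.43 ± 1.12 CPM against 6.59 ± 0.666 CPM (SD, n = 3 each, log2 fold change -0.58, edgeR adjusted p = 0.0225), a call lost without control replicate 1, NFL replicate 2 or NFL replicate 3 (highest adjusted p = 0.160) and with DESeq2 (adjusted p = 0.0539). Hmgb1, a chromatin protein that also binds TIM-3, was higher (log2 fold change 0.09, edgeR adjusted p = 0.043), although its groups overlapped and the call was lost without control replicate 3, NFL replicate 2 or NFL replicate 3 (highest adjusted p = 0.264), with library size alone (adjusted p = 0.0964) and with DESeq2. The log2 fold change of the other ligands, none of them past the threshold, was 0.20 for Cd274 (PD-L1), 0.13 for Pdcd1lg2 (PD-L2), 0.09 for Cd80, -0.12 for Icosl, 0.09 for Pvr (CD155), -0.09 for Nectin1, -0.74 for Nectin2 and -0.17 for Nectin4. Macrophage markers summed to at most 0.325 CPM in any library.

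Among 16 further inhibitory receptors and related molecules, 7 were tested, and 1 passed. This was Vsir, which encodes the inhibitory receptor VISTA, with 21.5, 19.1 and 21.4 CPM in the control libraries and 16.0, 13.7 and 13.9 CPM in the NFL libraries (log2 fold change -0.52, standard error 0.094, edgeR adjusted p = 0.000121). Its call was kept with each library left out, and its level was lower in all 3 NFL libraries than in any control library. Of 17 further costimulatory receptors, 6 were tested, and 1 passed, Tnfrsf9, which encodes 4-1BB. Its mean was 411 ± 7.93 CPM in the control group and 515 ± 11.2 CPM in the NFL group, a rise (SD, n = 3 each, log2 fold change 0.33, edgeR adjusted p = 2.14e-12). The coreceptors Cd2 and Cd5 and the ligand of CD40, Cd40lg, had no count in any library.

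**Figure D4:**
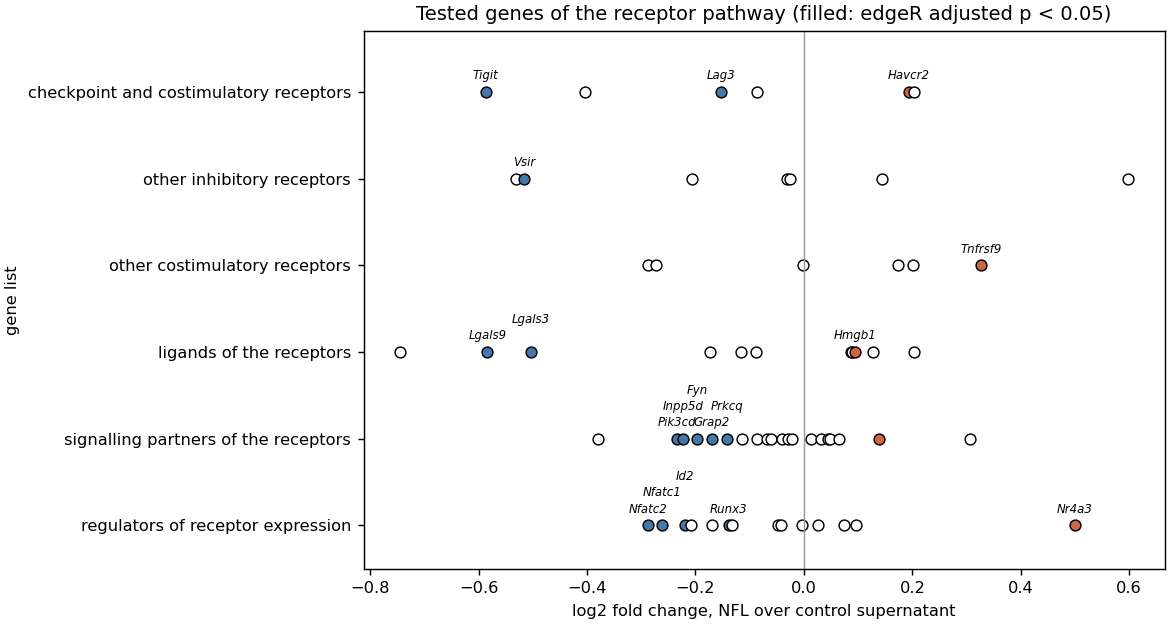
Log2 fold change (NFL over control supernatant) of the tested receptors and of the tested genes of 5 further lists, with 1 point per gene, filled in orange (higher) or blue (lower) where the edgeR adjusted p is below 0.05, and all but 1 of the filled points named. Over the 5 further lists 12 filled points lie left of 0 and 4 lie right of it.

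Inside the cell the receptors act through kinases, phosphatases and adaptors near the T cell receptor. Of 22 such signalling partners, 20 were tested, and 5 were lower and 1 was higher. Pik3cd, the catalytic PI3K subunit that works downstream of CD28 and ICOS, averaged 261 ± 8.36 CPM in the control and 222 ± 1.03 CPM in the NFL libraries (SD, n = 3 each, log2 fold change -0.23, edgeR adjusted p = 5.7e-07). Fyn, a Src-family kinase, was lower (log2 fold change -0.20, edgeR adjusted p = 0.000175), and both calls were kept with each library left out. Grap2, Prkcq and Inpp5d fell by 0.17, 0.14 and 0.22 on the log2 scale, and none of these 3 calls was kept throughout. Grap2 lost its call without NFL replicate 1 (edgeR adjusted p = 0.0834) and Prkcq without NFL replicate 2 or NFL replicate 3 (highest edgeR adjusted p = 0.0811). Inpp5d lost it in 5 of the 6 fits with a library left out, all but that without control replicate 2 (highest edgeR adjusted p = 0.164), and also with no filter, with DESeq2 and with thinned counts. The phosphatase genes Ptpn6 and Ptpn11, whose products bind the tails of PD-1 and of other inhibitory receptors, had log2 fold changes of -0.11 and 0.05 and did not pass.

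Transcription factors known to control these receptors were the last group. Of 23 genes 14 were tested, and 4 were lower and 1 was higher. Nfatc2, which encodes the calcium-dependent factor NFAT1, had 118, 121 and 115 CPM in the control libraries and 99.95, 91.3 and 98.8 CPM in the NFL libraries (log2 fold change -0.29, edgeR adjusted p = 1.89e-06). Nr4a3, a nuclear receptor gene induced by antigen receptor signals, rose, with a mean of 27.6 ± 1.59 CPM in the control and 39.0 ± 1.08 CPM in the NFL group (SD, n = 3 each, log2 fold change 0.50, edgeR adjusted p = 5.7e-07). Id2 and Runx3 were lower, with log2 fold changes of -0.22 and -0.14 (edgeR adjusted p = 3.95e-07 and 0.00163), and Nfatc1 fell by 0.26 (edgeR adjusted p = 0.0179), a call lost without control replicate 1, NFL replicate 1 or NFL replicate 3 (highest adjusted p = 0.150). Eomes was abundant at 439 ± 12.2 CPM and 426 ± 10.1 CPM (SD, n = 3 each) and did not pass (edgeR adjusted p = 0.486). Tox, the factor most closely tied to exhaustion, was at or under the floor in all 6 libraries. Over the 5 lists 58 of 94 genes were tested, of which 4 were called higher and 12 lower (27.6%, beside 7.00% of all tested genes), with a median log2 fold change of -0.05. The lists were chosen with earlier results of these data known. These shares were not matched for expression level and are a description only.

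Single genes in the marker lists of other cells, and several T cell markers, also differed between the supernatants. Klrb1c, which encodes the natural killer cell receptor NK1.1, was lower (log2 fold change -0.51, edgeR adjusted p = 2.43e-06), and the 7 natural killer cell markers summed to 29.7 to 32.9 CPM in the control libraries and 22.1 to 22.7 CPM in the NFL libraries, with Ncr1, Klra4, Klra7, Klra8 and Klrd1 at 0. The 14 T cell markers summed to 4044 to 4220 CPM in control libraries and 4227 to 4310 CPM in NFL libraries. Most of this sum was Thy1 (means of 1672 and 1613 CPM, control and NFL) and Il2ra (1647 and 1861 CPM). In the NFL libraries Il2ra was higher (log2 fold change 0.18, edgeR adjusted p = 1.05e-06), and Cd3e (-0.28), Lat (-0.26) and Zap70 (-0.12) were lower. Of 7 dendritic cell markers 2 passed the filter, and the list summed to 32.5 to 37.4 CPM with control and 43.2 to 44.4 CPM with NFL supernatant. This sum was nearly all Batf3, a transcription factor gene that rose from a mean of 33.1 to 41.5 CPM (log2 fold change 0.33, edgeR adjusted p = 0.000492). Itgax, the other one kept, had 1.88 and 1.47 CPM (edgeR adjusted p = 0.638), and Flt3 and Siglech were at 0. B cell markers (2 of 8 kept) summed to 2.97 to 3.27 and 3.51 to 4.01 CPM, and erythroid markers (2 of 7 kept) to 1.95 to 2.56 and 1.34 to 2.67 CPM. The mitochondrial share of reads was 1.65% to 1.77% in control libraries and 1.54% to 1.60% in NFL libraries, and the 10 most abundant genes took 3.98% to 4.06% and 4.10% to 4.11%, so that neither share overlapped between the groups. The part of these markers and shares in the receptor results was not tested.

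The genes whose log2 CPM followed each called receptor most closely over the 6 libraries were sought among 11323 genes whose log2 CPM averaged 1 or more. For Havcr2 these were Zdhhc17, Cct3 and Armh3 (Pearson's r 0.991 to 0.993), for Lag3 Stat5a, Entpd7 and Slc25a22 (0.988 to 0.992), and for Tigit Farp1, Mad1l1 and Pak2 (0.991 to 0.993). With 6 libraries that share 2 groups, such values are a description of likeness only.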

How the data were processed

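Poly(A)-selected RNA of 6 T cell cultures was sequenced on an Illumina instrument, and the authors deposited raw read counts for 55401 genes, without normalization. The submitters' processing notes name GRCm39, R 4.2.1 and limma 3.54.2, while 54349 gene identifiers with versions match GENCODE M21 (GRCm38), from which positions and exon lengths were taken. Aligner, counting tool and strand setting were not given in the sources used here. Samples were grouped by their labels (3 control, 3 NFL supernatant).

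Counts were filtered with filterByExpr (minimum count 10, minimum total 15), scaled by TMM and tested with edgeR 4.0.16 (R 4.3.3, quasi-likelihood F-test, Benjamini-Hochberg adjustment over 14082 genes, threshold 0.05). Single values were also compared by exact permutation. CPM per kb divides CPM by exon length. The scripts were tested on simulated data. Plots were drawn with matplotlib 3.10.9.

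The receptors and lists were chosen with earlier results of these data known. The text names all 10 receptors, up to 6 genes past the threshold per list, every tested ligand, and for each called receptor the 3 genes most like it. Of the genes this rule takes, 1 signalling partner is not reported here by name. Ptpn6, Ptpn11, Eomes, Tox, Cd2, Cd5 and Cd40lg were named after their values were seen. Alternatives were other scalings and filters, a replicate block, DESeq2 1.42.0, limma-voom (limma 3.58.1), counts thinned to 15843045 reads and each library left out. The floor of 3 counts was a fixed choice and was not estimated from the data.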

Additional observations from a re-analysis of the deposited data

How the results depend on the processing

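Havcr2 and Tigit kept their direction and their call under all 14 alternatives, with log2 fold changes of 0.17 to 0.21 and -0.68 to -0.51. With each library left out, 1 receptor was called higher throughout and 1 to 2 lower, since Lag3 lost its call without control replicate 2, NFL replicate 2 or NFL replicate 3 (-0.12, -0.11 and -0.17 on the log2 scale). Cd160 turned to -0.13 without NFL replicate 1 (edgeR adjusted p = 0.946) and ranged up to 0.39 without NFL replicate 3 (edgeR adjusted p = 0.812), with adjusted p-values of 0.812 to 0.946 over its 11 alternatives. Cd28 was not past the threshold in any of the 13 alternatives that gave an adjusted p (0.160 to 0.497). Of the other pathway genes, 2 were called higher with library size alone and 2 with DESeq2, against 4, and 2 to 4 were called higher and 8 to 12 lower with a library left out. Over all genes 489 were called higher and 497 lower, which became 250 to 514 and 258 to 452 with a library left out, and 372 and 600 with library size alone. The cause of these shifts was not tested. With the replicate number as a block, 1 receptor was higher and 2 were lower, 4 and 12 of the other pathway genes, and 536 and 513 of all genes. The deviations of same-numbered libraries correlated at only 0.0115, 0.0148 and 0.0074, although every sample correlated best with its own number. Whether the numbers pair the samples was not tested. Depth limits what can be said of Pdcd1, Ctla4, Icos, Cd226 and Cd160.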
